A study of Homo sapiens with 9 samples.

Results

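The GPATCH8-ADAR list holds transcripts of 293T cells that the authors listed for editing by a GPATCH8 fusion. In this fusion GPATCH8 is joined to the catalytic domain of the RNA deaminase ADAR. The members of the list are all 612 transcripts, of 565 genes, in the table deposited for this fusion. They were taken without any choice by value, and 52 of them had a count of 0 in every region. The tables of both fusions in the series hold 1952 transcript entries, 1796 distinct transcripts and 1513 genes. The 293T line derives from human embryonic kidney, expresses the large T antigen of SV40 and takes up plasmids readily.

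All groups were 293T cells whose SF3B1 the labels give as wild type, in 9 libraries. GPATCH8-ADAR was expressed in 2 libraries of sequencing run 1, and the 2 control libraries of that run received the MCP/ADAR fusion, which is not directed to any transcript. For context, a second table lists the transcripts of 2 libraries of ADAR-SUGP1 from run 2, a run that also held 2 libraries of its MCP/ADAR control and 1 untransfected library. Plasmids were delivered with polyethylenimine, and after 24 hours living GFP-positive cells were sorted. At least 500 ng of RNA per replicate was depleted of ribosomal RNA and read as paired 100 bp reads, about 60 to 80 M per sample. The fusions were expressed from plasmids in addition to the cells' own genes, and whether the replicates were separate cultures is not given in the labels.

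GPATCH8 is a nuclear protein with a G-patch, a short glycine-rich domain by which proteins bind and activate DEAH-box RNA helicases. The title of the series names it as required for mis-splicing by mutant SF3B1, the U2 snRNP subunit that helps to recognise the intron branchpoint, and SUGP1 is another G-patch protein that works with SF3B1. In the TRIBE assay a deaminase fused to an RNA-binding protein turns nearby adenosines into inosines, which sequencing reads as guanosines, so edited transcripts mark where the fusion came close to RNA. The question put to this list was which transcripts, and which regions of them, the GPATCH8 fusion edited.

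Each entry of the table is a number of editing sites, not of reads. The authors had subtracted endogenous editing and editing by the control fusion and kept sites found in both replicates. Each site count therefore stands for both GPATCH8-ADAR libraries together, with no spread between replicates and with 0 left for the control by construction. Editing levels, positions and read coverage are not part of the tables, so the depth behind each site is unknown. The 22 marker genes of kidney-line, blood, fibroblast and liver cells looked for had 0 listed members, but editing is not expression, and the label 293T could not be checked in this way.

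The genes with the most sites had 6 to 8 each. NUP205, a scaffold of the inner ring of the nuclear pore, had 8 sites, all in introns. NDUFV3, an accessory protein of complex I of the respiratory chain, had 7, all in the 3′ UTR. CCDC84 (current symbol CENATAC), a protein of the minor spliceosome, and EIF3L, a subunit of translation initiation factor 3, had 6 intronic sites each. HELLS, a chromatin remodeller needed for normal DNA methylation, also had 6 intronic sites, 5 in 1 listed transcript and 1 in another. TTF2, which releases RNA polymerase II from DNA, had 3 sites in introns and 3 in the 3′ UTR of the same transcript.

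Among the 7 genes with 5 sites, DNMT1, the maintenance DNA methyltransferase, ENSA, an inhibitor of a mitotic phosphatase, and POLG2, the accessory subunit of the mitochondrial DNA polymerase, had intronic sites alone. The transcripts CTD-2116N17.1 and RP4-785G19.5 had 5 intronic sites each. POLR1A, the largest subunit of RNA polymerase I, had 5 sites in its 3′ UTR, and SMPD4, a neutral sphingomyelinase, had 3 in introns and 2 in the 3′ UTR.

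A further 17 genes had 4 sites. All were intronic in LIN9, a subunit of the MuvB complex that controls cell cycle genes, in NUP153 of the nuclear basket and in BRD8, a bromodomain subunit of the NuA4 acetyltransferase complex. The same held for GANAB, the catalytic subunit of glucosidase II, PIGT, a subunit of the GPI transamidase, and the transporter genes SLC30A5 (zinc) and SLC3A2 (the heavy chain of amino acid transporters). The transcriptional coactivator CCAR1, the interferon signalling kinase TYK2, RSRC2, C4orf21 (current symbol ZGRF1) and the pseudogene AC093838.4 completed this set with 4 intronic sites each. PEX26, which anchors the peroxisomal import machinery, and RP11-192H23.4 had 4 sites each in the 3′ UTR. GART, an enzyme of purine synthesis, had 2 intronic and 2 3′ UTR sites, LIN52 of the MuvB complex had 3 intronic and 1 3′ UTR site, and CTTN (cortactin, an actin-binding protein) had 3 intronic and 1 5′ UTR site. Of the 30 genes with at least 4 sites, 21 had them all in introns, 4 all in the 3′ UTR and 5 in a mixture of regions.

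**Figure D1:**
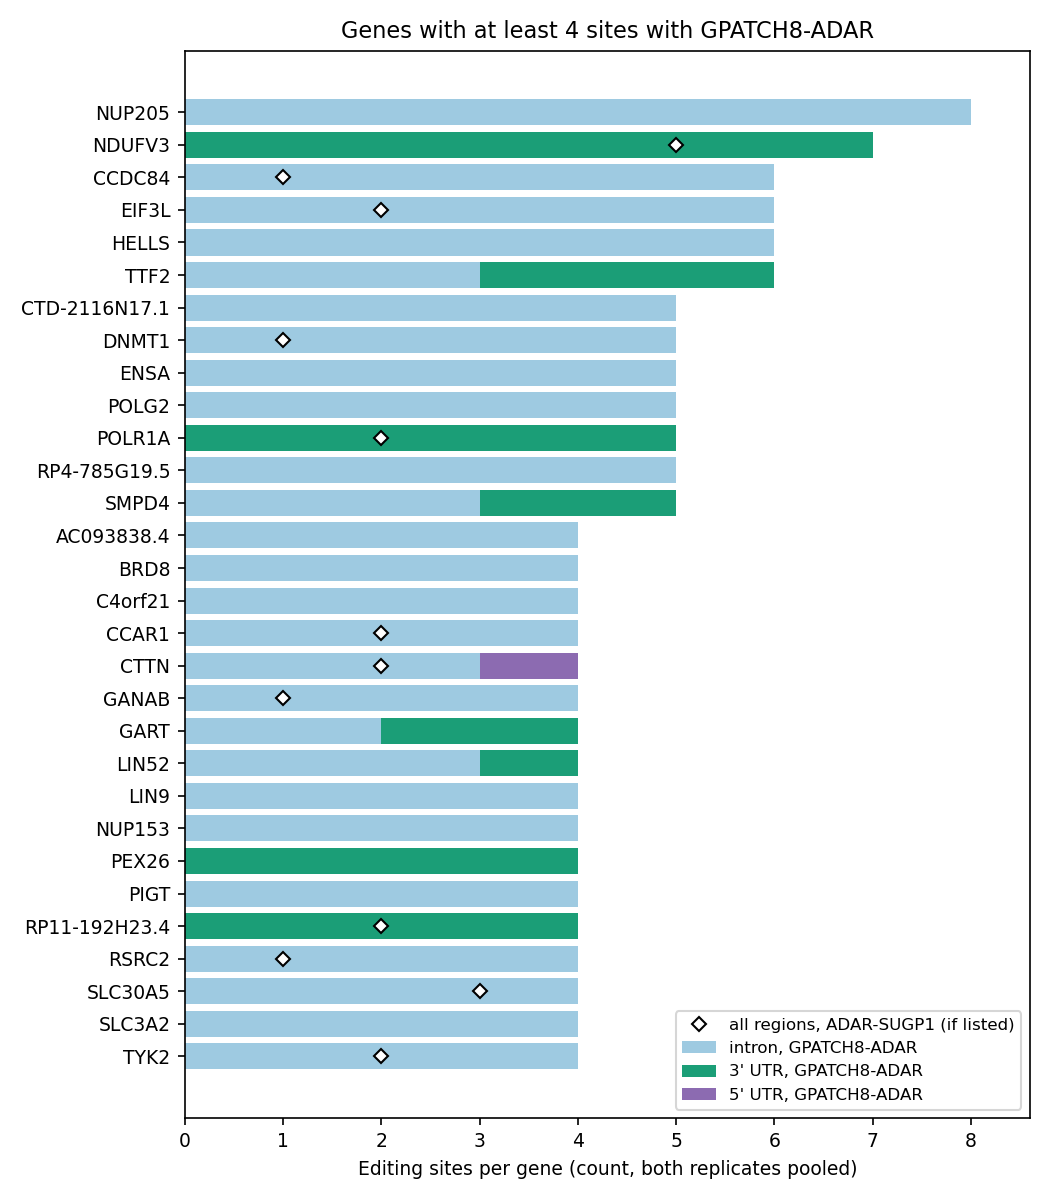
Editing sites per gene for the 30 genes with at least 4 sites on the GPATCH8-ADAR list, with sites on the horizontal axis and the region of the sites as the colour of each bar segment; diamonds give the sites of a gene on the ADAR-SUGP1 list, where listed, and both replicates are pooled, so there are no error bars. NUP205 leads with 8 intronic sites, and NDUFV3 (7), POLR1A (5), PEX26 (4) and RP11-192H23.4 (4) are the 4 genes with 3′ UTR sites alone.

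Most listed genes had a single site (374 of 565), and a smaller number held several. Genes with at least 2 sites numbered 159 and held 423 of the 797 sites (53.1%). The 53 genes with at least 3 sites held 26.5% of sites, and the 13 genes with at least 5 sites held 9.28%. The 23 genes with exactly 3 sites included BLM, the helicase mutated in Bloom syndrome, PTBP2, a regulator of neuronal splicing, PABPC1, the cytoplasmic poly(A)-binding protein, and RCC1, the exchange factor of the GTPase Ran.

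A share of 28.1% of listed genes had at least 2 sites (159 of 565, 95% exact binomial interval 24.5 to 32.0), against 19.3% on the ADAR-SUGP1 list (214 of 1110, 17.0 to 21.7). The difference of 8.86 percentage points passed Fisher's exact test (two-sided, adjusted p = 9.37e-05 by Benjamini-Hochberg over the 9 comparisons of lists or regions made here). Such tests compare these lists of sites, not the conditions, since sites and genes are not replicates of a culture. GPATCH8-ADAR came from run 1 and ADAR-SUGP1 from run 2, so effects of fusion and run cannot be told apart. Intervals given here cover counting error only. For shares of sites, intervals and tests treat sites as independent. Sites of a transcript mostly lie in the same region, so those intervals can be too narrow and those p-values too small.

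The sites of a transcript nearly always lay in 1 kind of region. Of 542 transcripts with a site in the transcript body (5′ UTR, coding sequence, 3′ UTR or intron), 539 (99.4%) had sites in 1 region only. The exceptions were TTF2, LIN52 and LARS, the cytosolic leucyl-tRNA synthetase, which combined intron and 3′ UTR sites. A transcript with a single site lies in 1 region by definition. Among the 157 transcripts with at least 2 sites, 154 (98.1%) kept to 1 region. This was the intron in 128, the 3′ UTR in 24 and the coding sequence in 2. The mixtures seen in SMPD4, GART and CTTN were thus sums over different listed transcripts of the gene. The tables do not say how a site was assigned where transcripts of a gene overlap.

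Introns held 630 of the 797 sites, in 419 transcripts of 416 genes, with up to 8 per transcript. The 3′ UTR held 141 sites in 101 genes, the coding sequence 17 in 15 genes and the 5′ UTR 9 in 9 genes. Of the 167 exonic sites, 84.4% lay in the 3′ UTR. Compared with the ADAR-SUGP1 list, the GPATCH8-ADAR list had more of its sites in introns (79.0% against 69.2%) and fewer in coding sequence (2.13% against 10.4%). The two-sided Fisher's exact test, adjusted over the same 9 comparisons, gave an adjusted p of 1.94e-06 for introns and 1.7e-13 for coding sequence. By the same exact test the 5′ UTR share was lower by 3.73 points (1.13% against 4.86%, adjusted p = 2.75e-06). The share of transcripts with a stop-codon site was lower by 7.63 points (3.27% against 10.9%, same exact test, adjusted p = 1.12e-08). The 3′ UTR share was 17.7% against 15.5% (same exact test, adjusted p = 0.249), a difference that did not pass. Transcripts with a promoter site were 1.47% against 0.970% (same exact test, adjusted p = 0.358), which did not pass either. Since sites of a transcript are not independent, genes with a site were also counted. Introns then stood at 78.0% against 68.1% of genes with a body site (same exact test, adjusted p = 0.000106). Coding sequence stood at 2.81% against 12.3% (same exact test, adjusted p = 2.66e-10).

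Among the 156 transcripts present on both lists, a restriction chosen after the data were seen, the intronic difference was 0.687 points and the coding difference -1.46 points, and neither passed the same exact test (adjusted p = 1.00 and 0.446). The 5′ UTR difference there was -0.485 points (same exact test, adjusted p = 0.710), and the stop-codon difference turned to 0.641 points (2.56% against 1.92%, same exact test, adjusted p = 1.00). Among genes with 1 listed transcript the stop-codon difference was -3.31 points (same exact test, adjusted p = 0.000349).

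**Figure D2:**
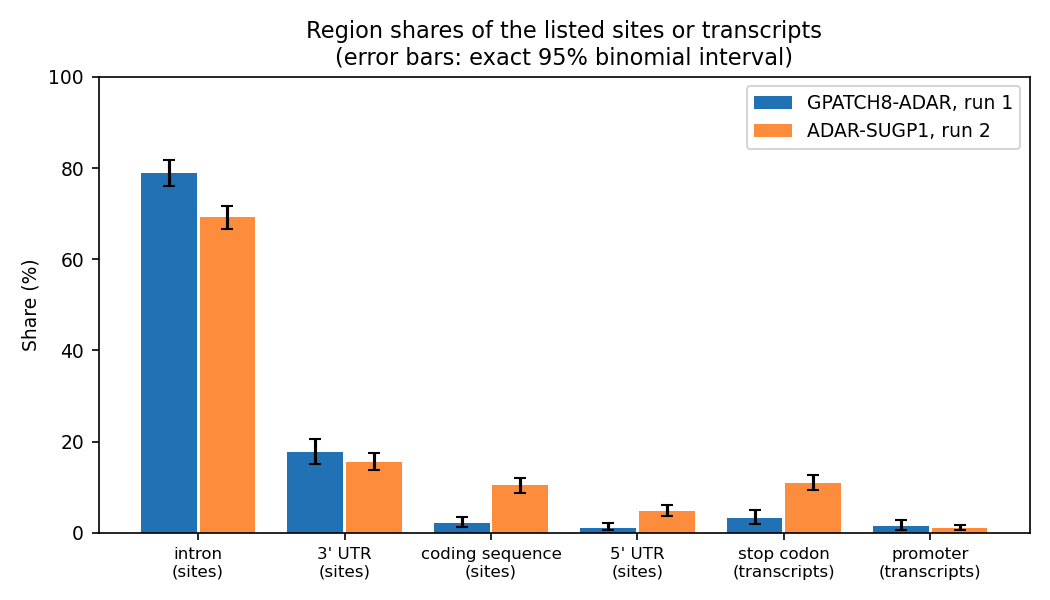
Share of sites in each region of the transcript body, and share of transcripts with a stop-codon or promoter site, for the GPATCH8-ADAR and ADAR-SUGP1 lists, in percent, with 95% exact binomial intervals as error bars. Introns stand at 79.0% against 69.2% and coding sequence at 2.13% against 10.4%, while the 3′ UTR stands at 17.7% against 15.5%.

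In the 3′ UTR the highest counts were 7 to 3 per gene. After NDUFV3 (7 sites), POLR1A (5), PEX26 (4) and RP11-192H23.4 (4) came TTF2, ZNF789 and TMEM120B with 3 each, where ZNF789 encodes a zinc finger protein. The 3 of TMEM120B were 2 in 1 listed transcript and 1 in another. NDUFS1, a core subunit of complex I, CASP8, the initiator caspase of death receptors, and ADRBK2 (current symbol GRK3), a kinase of G-protein-coupled receptors, were among the genes with 2. Of the 99 transcripts whose sites all lay in the 3′ UTR, 75 had 1 site, 19 had 2, 1 had 3 and 4 had at least 4. Of the 416 transcripts with intronic sites alone, 288 had 1, 84 had 2, 23 had 3 and 21 had at least 4. At least 2 sites were present in 24.2% of the former and 30.8% of the latter, a difference of -6.53 points that did not pass Fisher's exact test (two-sided, adjusted p = 0.249).

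**Figure D3:**
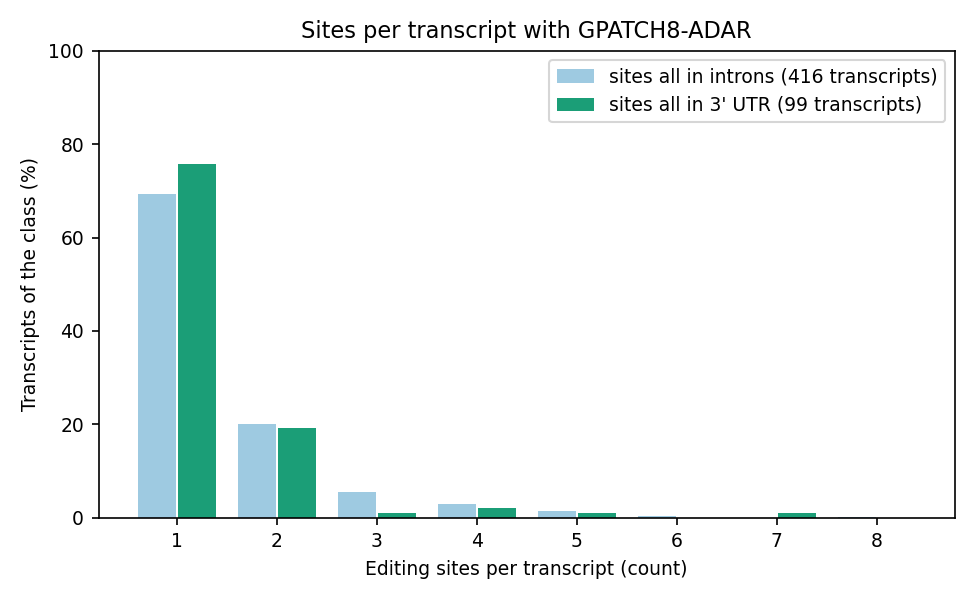
Percent of transcripts by number of sites, for the 416 transcripts with intronic sites alone and the 99 with 3′ UTR sites alone on the GPATCH8-ADAR list. In both classes most transcripts have 1 site (288 and 75 transcripts), and the highest counts, in bars of 1 transcript each, belong to NUP205 (8, intron, too low a bar to see) and NDUFV3 (7, 3′ UTR).

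Only CUL7, a cullin scaffold of ubiquitin ligases, and FCF1, a factor of small ribosomal subunit assembly, had 2 coding sites. Single coding sites were counted in 13 genes. They were the splicing-related GEMIN6 of the SMN complex, the centromere protein CENPL, the GPI-anchor enzyme PIGO, the lipoprotein receptor SCARB1, the kinase CAMK2G and the transporter ABCC10, with FNBP4, NBEAL2, ZSCAN32, CDH24, MZT2B, SERP1 and ECSIT. PIGO was also on the ADAR-SUGP1 list, there with 1 intronic site. The 9 genes with a 5′ UTR site had 1 each. They included MTA1, a subunit of the NuRD deacetylase complex, the actin regulators CTTN and SSH2, the leukocyte integrin ITGB2 and the ubiquitin ligase NOSIP, with TTLL3, NBPF1, ZNF398 and NFATC2IP. NBPF1 belongs to a family of near-identical copies, so its site is uncertain.

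Stop-codon counts, which the table keeps apart from the transcript total, were present in 20 transcripts of 20 genes and summed to 24. In 9 of them the transcript also had body sites, and in all 9 the stop-codon count did not exceed its coding and 3′ UTR sites. These were GART, PLA2G6 and FCF1 with 2, and the lysosomal glucosidase GAA, ZNF587B, KHDC1, MRPL32, TUBGCP2 and SERP1 with 1. The other 11 had stop-codon counts alone. CASP8 had 2, and ZRSR1, TTLL3, DHDDS, PIEZO1, CDV3, SCARB1, LDHA, GGA2, FBXL12 and ECSIT had 1. Another transcript of the same gene was listed for 10 of these 11, and for 6 genes, among them the lactate dehydrogenase LDHA and the mechanosensitive channel PIEZO1, it had an intronic site. Without positions it cannot be told whether both counts refer to the same site.

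Promoter counts were present for 9 transcripts and summed to 13. The body of the transcript had intronic sites as well in the long non-coding RNAs RP11-452L6.1 (2 promoter, 2 intronic) and RP4-564F22.5 (1 and 1). VPS33B, which acts in vesicle tethering, and the RNA helicase DDX56 had 2 promoter sites and no body site. RABL5 (current symbol IFT22, a subunit of the intraflagellar transport machinery), the pseudogene ASS1P12 and the transcripts RP11-226L15.5 and RP11-485G4.2 had 1, and RN7SL529P had 2. How far these promoter regions extend is not given in the sources used here.

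For 52 listed transcripts, 34 of them coding, every region had a count of 0. Another listed transcript of the same gene carried a site for 28 of the 52, an exonic one in 23 cases and an intronic one in 5. In 24 genes no listed transcript had a count in any region, and these genes stay among the 565 listed here. More than 1 transcript was listed for 44 genes, and ECSIT, PIEZO1 and SCARB1 had 3. Several transcripts were listed for 31 of 125 genes with an exonic site (24.8%) and for 13 of 408 genes with intronic sites alone (3.19%).

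Non-coding transcripts made up 68 of the 612 entries (11.1%, 95% exact binomial interval 8.73 to 13.9), against 124 of 1340 on the ADAR-SUGP1 list (9.25%), a difference that did not pass Fisher's exact test (two-sided, adjusted p = 0.249). They carried 65 sites in 46 transcripts, and all 65 were counted as intronic. Antisense transcripts numbered 28 with 24 sites, long intergenic RNAs 16 with 14, pseudogenes 11 with 10, processed transcripts 10 with 12 and sense-overlapping transcripts 2 with 5. RP4-785G19.5 led with 5 sites, followed by AC093838.4 with 4 and by RP11-14N7.2 and RP11-146F11.5 with 3 each. Use of strand in the assignment is not given in the sources used here, so a site of an antisense transcript cannot be told from a site of the gene opposite. Of the 5 listed RNAs named after a partner gene (CRHR1-IT1, PCBP1-AS1, RAB30-AS1, SPAG5-AS1 and UGDH-AS1), none had its partner on the list.

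To describe function, listed genes were counted in sets of protein-coding genes beside the share of all protein-coding genes. Of 20052 such genes, 485 were on the GPATCH8-ADAR list (2.42%) and 969 on the ADAR-SUGP1 list (4.83%). Which genes were expressed and read deeply enough to be called is not known. The sets were therefore not tested, and a share above 2.42% is not particular to a set. The share exceeded 2.42% in 25 of 27 sets, with a median of 6.82% and a range of 1.76 to 22.7%. With ADAR-SUGP1, 24 of the 27 exceeded 4.83%, with a median of 13.2%.

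**Figure D4:**
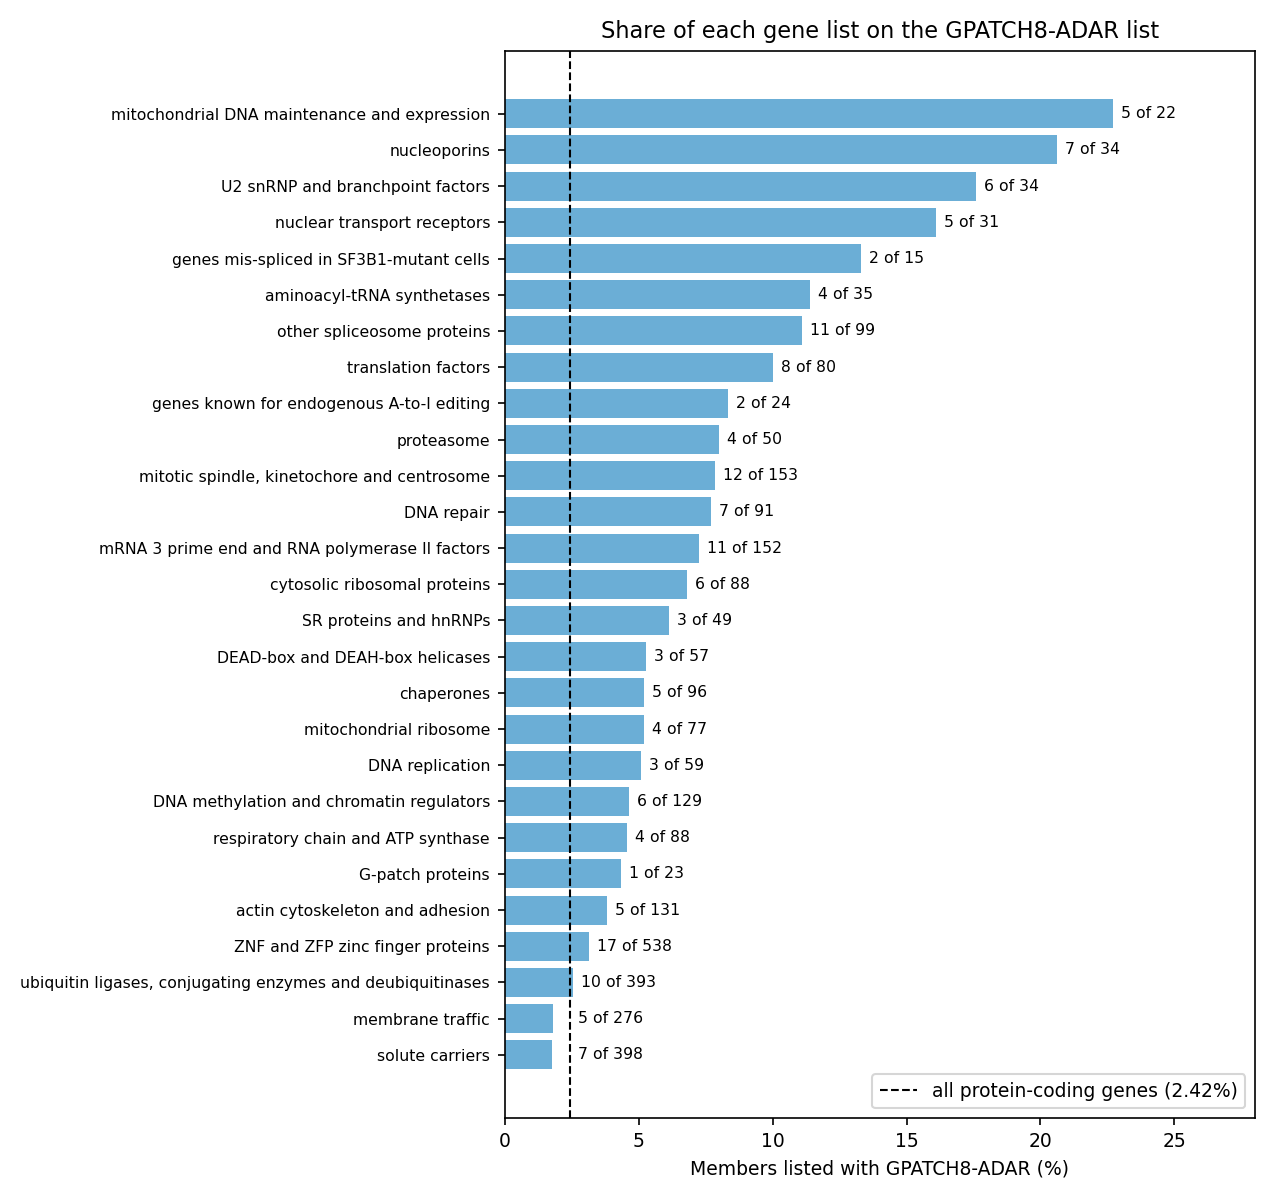
Percent of the members of each gene set that were on the GPATCH8-ADAR list (with the number of listed members), in order of share, with a dashed line at the 2.42% of all protein-coding genes. Mitochondrial DNA maintenance and expression (5 of 22) and nucleoporins (7 of 34) stand highest. Membrane traffic (5 of 276) and solute carriers (7 of 398) lie below the line.

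Of 34 U2 snRNP and branchpoint factors, 6 were listed (17.6%), with 11 sites, all intronic, where introns held 79.0% of all sites, and the ADAR-SUGP1 list also held 6. DDX46, the helicase that prepares U2 snRNP for the branchpoint, SF3A2 and SF3B3 of U2 snRNP, U2SURP and RBM39 had 2 each, and PHF5A, which borders the branchpoint pocket of SF3B1, had 1. Other spliceosome proteins contributed 11 of 99 (11.1%) with 20 sites. After CENATAC (6 sites) came SNRNP40 of U5 snRNP and SRPK1, the kinase of SR proteins, with 3 each. EFTUD2, the U5 GTPase, PRPF3 of U4/U6 snRNP, PRPF38B and the kinase PRPF4B (current symbol PRP4K) had 1 intronic site, and SMU1 had 1 in its 3′ UTR. SR proteins and hnRNPs contributed 3 of 49 (6.12%). They were PTBP2 (3 intronic), HNRNPC (2 intronic) and SRSF3 (1 in the 3′ UTR), and ADAR-SUGP1 listed 12 of the 49. Of 23 genes for G-patch proteins only TFIP11, a partner of the spliceosome disassembly helicase, was listed, with 1 site, against 4 with ADAR-SUGP1. Of 15 genes known to be mis-spliced in SF3B1-mutant cells, SLC3A2 (4 intronic) and ENOSF1 (1 intronic) were listed, against 5 with ADAR-SUGP1. GPATCH8, SUGP1, SF3B1, ADAR, MAP3K7 and BRD9 were on neither list.

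Listed members of the nucleoporin and nuclear transport receptor sets had intronic sites alone, where introns held 79.0% of all sites. Of 34 nucleoporins, 7 were listed (20.6%) with 18 sites, against 6 with ADAR-SUGP1. Beside NUP205 (8) and NUP153 (4), the outer ring was represented by NUP133 (2), NUP107 (1) and NUP85 (1), and NUP98 and AAAS had 1 each. Nuclear transport receptors and Ran factors contributed 5 of 31 (16.1%) with 10 sites. These were RCC1 (3), the import receptor TNPO1 (3), the exporter of importin alpha CSE1L (2), IPO7 (1) and XPO5, the exporter of microRNA precursors (1).

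Transcription and RNA 3′-end factors contributed 11 of 152 (7.24%), with 9 intronic and 9 3′ UTR sites. After TTF2 (6) came VWA9 (current symbol INTS14), a subunit of Integrator, with 2 intronic sites and the polymerase II subunit copy POLR2J3 with 2 in the 3′ UTR. PCF11, a termination and cleavage factor, GTF2H3 of TFIIH and its relative GTF2H2C had 1 in the 3′ UTR. CPSF3L (current symbol INTS11, the Integrator endonuclease) and SUPT16H of the FACT complex had 1 in introns. POLR2J3 and GTF2H2C have near-identical copies, so their counts are uncertain. DEAD-box and DEAH-box helicases contributed 3 of 57 (5.26%), DDX46 with 2 sites, DDX21 with 1 and DDX56 with none in its body, against 14 with ADAR-SUGP1.

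Of 80 translation factors, 8 were listed with 17 sites, led by EIF3L (6), EIF4B (3) and PABPC1 (3). The cap-binding protein EIF4E, the scaffold EIF4G3 and the initiation factor 3 subunits EIF3B and EIF3I had 1 intronic site, and EIF4H had 1 in its 3′ UTR. Aminoacyl-tRNA synthetases contributed 4 of 35 (11.4%), IARS with 3 sites, LARS and RARS with 2 and the mitochondrial VARS2 with 1. Cytosolic ribosomal proteins contributed 6 of 88 (6.82%), each with 1 site, among them RPL24 and RPL7L1 with an intronic site and RPL37A with 1 in its 3′ UTR. The ADAR-SUGP1 list held 24 of the same 88 (27.3%). Ribosomal protein genes and PABPC1 have processed copies, which can share reads from exons.

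Genes for mitochondrial DNA maintenance and expression had the highest share of the 27 sets with GPATCH8-ADAR. Of these 22 genes, 5 were listed (22.7%) with 10 intronic sites, against 7 (31.8%) with ADAR-SUGP1. POLG2 had 5, FASTKD1 had 2, and the exonuclease MGME1, the RNA-degrading PNPT1 and the transcription elongation factor TEFM had 1. Respiratory chain and ATP synthase genes contributed 4 of 88 (4.55%), with 9 of 12 sites in 3′ UTRs. NDUFV3 had 7, NDUFS1 had 2 in the 3′ UTR, UQCRC1 of complex III had 2 intronic and NDUFB1 had 1. Mitochondrial ribosomal proteins contributed 4 of 77 (5.19%), of which MRPL19 had 3 sites, MRPL32 and MRPS25 had 1, and MRPS18C had none in its body.

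Chromatin regulators contributed 6 of 129 (4.65%) with 18 intronic sites, led by HELLS (6), DNMT1 (5) and BRD8 (4). The remodeller CHD1, the histone acetyltransferase KAT8 and the histone methyltransferase SETDB1 had 1 each. DNA repair genes contributed 7 of 91 (7.69%) with 12 sites. BLM had 3, the Fanconi anaemia genes FANCA and PALB2 and the uracil glycosylase UNG had 2, and POLH and PRKDC had 1 in introns and the damage kinase ATM had 1 in its 3′ UTR. Replication genes contributed 3 of 59 (5.08%), POLE2 with 2 sites (1 in each of 2 listed transcripts) and MCM8 and RFC3 with 1. Spindle, kinetochore and centrosome genes contributed 12 of 153 (7.84%) with 16 sites. ANAPC5 of the anaphase-promoting complex, CENPM and SPC24 of the kinetochore and HAUS6 of the spindle had 2 intronic sites. ANAPC7 and the centromeric histone CENPA had 1 intronic site, ANAPC16 had 1 in the 3′ UTR and CENPL 1 in coding sequence.

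Listed members of the protein turnover and folding sets had 1 to 3 sites each, where the median of all listed genes was 1. The ubiquitin set contributed 10 of 393 (2.54%, close to the 2.42% of all genes) with 13 sites, led by the ligase RNF138 (3 intronic) and CUL7 (2 coding). It does not hold every ubiquitin gene, and leaves out the listed NOSIP, UBE4A and MKRN1, among others. The p53 inhibitor MDM4 and RNF149 had 1 in the 3′ UTR, and RNF34, TRIM27 and UBE2D2 had 1 intronic site. Proteasome genes contributed 4 of 50, and PSMC6, PSMD4, PSMD7 and PSMD14, all of the regulatory particle, had 1 site each. Chaperones contributed 5 of 96 (5.21%), CCT3 and PFDN5 with 2, and DNAJC21, HSPD1 and DNAJB2 with 1, the last in the 3′ UTR.

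ZNF and ZFP zinc finger genes contributed 17 of 538 (3.16%), and 12 of their 23 sites lay in the 3′ UTR, 10 in introns and 1 in a 5′ UTR. ZNF789 had 3, and ZNF587B and ZNF790 had 2, in the 3′ UTR. ZNF146 and ZNF346 had 2 intronic sites. Many members of this family share sequence, so single counts are uncertain.

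The sets of solute carriers and membrane traffic genes, as made here, lay below the 2.42% of all genes. The membrane traffic set does not hold every gene of that class, and leaves out the listed GGA2, ERGIC3 and TMED5, among others. Solute carriers contributed 7 of 398 (1.76%), SLC30A5 and SLC3A2 with 4 sites, and SLC25A16, SLC25A27 and HIATL1 (current symbol SLC71A2) with 2 intronic sites. SLC33A1 and KIAA1919 (current symbol SLC60A2) had 1 in the 3′ UTR. Membrane traffic genes contributed 5 of 276 (1.81%), the adaptor subunit AP1S3, the GTPase activator ARFGAP2 and the syntaxin STX12 with 2 sites, SNX5 with 1 and VPS33B with none in its body. ADAR-SUGP1 listed 19 and 24 members of these sets. Actin and adhesion genes contributed 5 of 131 (3.82%), CTTN with 4, the mitochondrial myosin MYO19 with 2, the integrins ITGA7 and ITGB2 with 1 and the readthrough gene ARPC4-TTLL3 with none in its body. Of 24 known targets of endogenous A-to-I editing, 2 were listed (8.33%), MDM4 (1 in the 3′ UTR) and UBE2O (1 intronic). ADAR-SUGP1 listed 4 of the 24 (16.7%). The sets left 407 of the 565 listed genes uncounted.

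Genes listed for both fusions numbered 162, or 28.7% of the GPATCH8-ADAR list and 14.6% of the ADAR-SUGP1 list. Of all protein-coding genes, 4.83% were on the ADAR-SUGP1 list and 2.42% on the GPATCH8-ADAR list. The overlap was not tested, because the genes expressed and read deeply enough to be called are not known. By number of sites with GPATCH8-ADAR, the shared genes were 5 of 32 with none, 102 of 374 with 1 (27.3%), 38 of 106 with 2 (35.8%), 5 of 23 with 3 (21.7%) and 12 of 30 with at least 4 (40.0%). Shared genes made up 31.5% of genes with an intronic site (131 of 416), 23.8% of those with a 3′ UTR site (24 of 101), 6.67% of those with a coding site (1 of 15, PIGO), 22.2% with a 5′ UTR site (2 of 9), 40.0% with a stop-codon site (8 of 20) and 33.3% with a promoter site (3 of 9), and these differences were not tested. Of the 24 with a 3′ UTR site, ADAR-SUGP1 also had a 3′ UTR site in 17 and an intronic site in 7, with NDUFV3 in both counts and TUBGCP2, which had a coding site, in neither. POLR1A had 5 and 2 sites in the 3′ UTR of the same transcript, ENST00000263857.6, with GPATCH8-ADAR and ADAR-SUGP1, and NDUFS1 had 2 and 5 in its 3′ UTR. NDUFV3 differed in that its 7 GPATCH8-ADAR sites lay in the 3′ UTR of ENST00000340344.4, where ADAR-SUGP1 had 1, while 4 further ADAR-SUGP1 sites were intronic in ENST00000460259.1. RP11-192H23.4 had 4 3′ UTR sites with GPATCH8-ADAR and 2 intronic sites with ADAR-SUGP1. NUP205, HELLS, TTF2, ENSA, POLG2, LIN9 and LIN52 were among the 18 genes with at least 4 sites that ADAR-SUGP1 did not list. Absence from a list can mean no editing by that fusion, too few reads, a site in only 1 replicate or a site removed by subtraction. Which of these applies cannot be told from the tables.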

How the data were processed

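TRIBE-seq libraries of 293T cells were grouped by the labels. The submitters' processing notes name Trimmomatic, STAR and hg19. Tool versions, the site caller and its thresholds, annotation and strand use were not given in the sources used here. Per the file headers, the deposited tables, 1 for each fusion, hold the authors' counts of editing sites (whole numbers, not reads) by Ensembl transcript and region, after the subtraction and replicate filter given in the series' design text. That filter can pass over sites of thinly read transcripts.

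The 572 blank lines of the GPATCH8-ADAR table were skipped. Counts were summed over the listed transcripts of a gene, so a site placed in more than 1 transcript would count more than once. Of 565 gene names, 455 were current RefSeq symbols, 46 were synonyms and 64 were not matched, by a table of assembly GRCh38.p14 used only for names, background and gene order. No coordinates or sequences were used, because the tables give no positions. Shares have 95% Clopper-Pearson intervals, and lists were compared with Fisher's exact test, two-sided, at an adjusted p of 0.05 over 9 tests, with Python 3.11.15, scipy 1.17.1 and pandas 2.3.3. The scripts were tested on simulated data.

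Members, gene sets and tests were chosen with earlier results of these data known, and 6 sets (under the other observations) after listed genes were seen. Sets were made by symbols and symbol patterns, take in a few genes of like name and leave out some of like function. Their shares hold only for the sets as made here. Genes were named by rule: at least 4 sites; any coding, 5′ UTR, promoter or stop-codon site; the most 3′ UTR sites; leading non-coding transcripts; up to 8 members of each set. GPATCH8, SUGP1, SF3B1, ADAR, MAP3K7 and BRD9 were to be named whatever their values. Other genes (with 3 sites or on both lists) were picked with their values in view. Alternatives counted genes in place of sites, kept subsets of transcripts or genes, or changed the background.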

Additional observations from a re-analysis of the deposited data

How the results depend on the processing

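Of 133 values recomputed under alternatives, the region differences kept direction and side of the threshold when genes were counted in place of sites, with 1 listed transcript, with protein-coding transcripts, with at least 2 sites, and with transcripts of 1 list only. Among the 156 transcripts of both lists, chosen after the data were seen, Fisher's exact test (two-sided, adjusted over its family) no longer passed for introns (0.687 points, adjusted p = 1.00), coding sequence (-1.46, adjusted p = 0.446) or the 5′ UTR (-0.485, adjusted p = 0.710), and the stop-codon difference turned to 0.641 points (2.56% against 1.92%, adjusted p = 1.00); the cause was not tested. A transcript on both lists can bring the same region to both, so that subset cannot decide on the region differences. Listed set members numbered 158 of 3186 (4.96%) and 62 with at least 2 sites required. Over all 59778 genes of the reference table the listed share was 0.838% in place of 2.42%, and 22 in place of 45 listed genes had a listed neighbour, since that order holds more genes. Leaving out each replicate was not run, because the tables hold 1 pooled count per fusion. No paired analysis was possible because the columns carry no replicate. Protein lengths, planned as a description, were not used here. Depth per site is unknown, so genes that were not listed cannot be told from genes too shallowly read.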

Other observations

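The sets below were chosen after the listed genes were seen, so their counts are descriptions that support nothing. Of all protein-coding genes, 2.42% were on the GPATCH8-ADAR list and 4.83% on the ADAR-SUGP1 list. The MuvB core and B-MYB switch cell cycle genes on and off. Of their 6 genes, 4 (66.7%) were listed with GPATCH8-ADAR and carried 12 sites. LIN9 had 4 intronic sites, LIN52 had 3 intronic and 1 3′ UTR site, LIN54 had 2 in its 3′ UTR and MYBL2 had 2 in introns. ADAR-SUGP1 listed 2 of the 6. Of 79 ribosome biogenesis genes, 12 (15.2%) were listed with 14 sites. FCF1 had 2 coding sites, the GTPase GTPBP4 and WDR12 of large subunit assembly had 2 in introns, and DDX21, NAF1, NOL11, NOP58, NPM1, NVL and PWP1 had 1. WDR3 had 1 in its 3′ UTR, and DDX56 had none in its body. ADAR-SUGP1 listed 5 of the 79. Of 18 subunits of RNA polymerases I and III, 4 were listed (22.2%), and ADAR-SUGP1 listed 1. POLR1A had 5 3′ UTR sites, POLR3E had 2 sites, and POLR1B and POLR3A had 1. NPM1 has many processed copies, so its count is uncertain.

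Enzymes that build and trim N-linked sugars in the endoplasmic reticulum contributed 5 of 29 genes (17.2%) with 9 sites, against 1 with ADAR-SUGP1. GANAB had 4, and the glucosyltransferase ALG8 had 2, 1 in each of 2 listed transcripts. DHDDS, the oligosaccharyltransferase subunit STT3A and the folding sensor UGGT1 had 1, the last in its 3′ UTR. GPI-anchor genes contributed 2 of 23 (8.70%), PIGT with 4 intronic sites and PIGO with 1 coding site, and ADAR-SUGP1 listed 5. RNA exosome genes contributed 2 of 12 (16.7%), EXOSC2 with 3 sites and the nuclease DIS3 with 1, and ADAR-SUGP1 listed 3.

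In the order of protein-coding genes along chromosomes, 45 of 485 matched genes stood next to another listed gene, in 23 pairs. No share expected over all genes is given beside this count, so it is a description and says nothing on clustering. CCDC18 (3 sites) lay between TMED5 (1) and DR1 (1), PTGES3 (2) lay beside NACA (2), SMPD4 (5) beside MZT2B (1) and SLC30A5 (4) beside CCNB1 (1). ATAD3A and ATAD3B, near-identical neighbours, had 1 site each. Positions and strand are not part of the tables, so it cannot be told whether a site in such a pair was assigned to the right gene.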
